A study of Mus musculus with 9 samples.

Results

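The genes of the cone phototransduction cascade were read out in cells sorted from the mouse retina as RGCs. The set was made by gene name, with earlier results of these data known. It comprised the 2 cone opsins, cone arrestin and the 3 subunits of cone transducin. The catalytic and inhibitory subunits of the cone phosphodiesterase and both subunits of the cone channel completed it. All 10 genes (Opn1sw, Opn1mw, Gnat2, Gnb3, Gngt2, Pde6c, Pde6h, Cnga3, Cngb3 and Arr3) were among the 15228 genes of the deposited table, and all 10 passed the filter on low genes used for the tests. The sorted cells were wild-type (C57BL/6J in the study's methods), and each of the 3 groups had 3 RNA-seq libraries. Ctrl was made from intact retinas. ONC was made 3 d after optic nerve crush, which injures the axons of RGCs, in eyes injected with PBS. TPEN was made 3 d after the same crush in eyes injected with the zinc chelator TPEN at 100 μM. Surgery was done at 6 to 8 weeks of age, and the injection followed the crush immediately. No injection is stated for Ctrl, so the crush and the injection cannot be told apart in comparisons with Ctrl. Below, the words after the crush refer to the crush with PBS. It is not stated whether the libraries of a group were separate mice or how many retinas each held, so p-values measure the spread between these libraries, which may be technical.

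The libraries held 19946993 to 23109754 reads (median 22415632). RPKM, the unit of the levels given here, counts the reads of a gene relative to its exon length and to the total of the library. The members had between 130 reads (Opn1mw in Ctrl) and 4112 reads (Gnb3 in ONC) in a library. The name of the sorted cells did not match their most abundant transcripts. Gnat1, the transducin of rods, was at 9594 to 12062 RPKM in the 9 libraries, whereas the RGC markers Rbpms, Pou4f1 and Slc17a6 had group means of at most 0.605 RPKM. Other RGC markers, which other neurons also express, were higher. The neurofilament genes Nefl and Nefm, which share 1108 exon bases, had group means of 198 to 264 RPKM and 44.8 to 60.2 RPKM. Those of Nefh, Sncg and Gap43 were 22.5 to 31.1, 18.4 to 23.3 and 7.79 to 24.0 RPKM, and those of Thy1, which encodes the CD90 used in the sort, were 4.74 to 7.12 RPKM. The libraries are therefore called sorted cells below, and photoreceptor transcripts in them cannot be assigned to cells. In such bulk libraries, fewer cells of a type and less RNA per cell cannot be told apart.

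Cones are the photoreceptors of daylight and color vision. Light isomerizes the chromophore of a cone opsin, the opsin activates transducin, a G protein with an α, a β and a γ subunit, and transducin relieves the inhibition of a phosphodiesterase that hydrolyzes cGMP. The fall in cGMP closes a cyclic nucleotide-gated channel, and arrestin ends the activity of the opsin. Rods use a parallel cascade with their own subunits. Among the cone subunits, the β subunit encoded by Gnb3 is known to be used outside cones as well, in the G protein of ON bipolar cells, which signals from the glutamate receptor mGluR6.

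Positions follow the deposited table (GRCm38). Gnb3 lay on chromosome 6 (124834240 to 124840275, minus strand) in 10 exon blocks, and no other listed gene overlapped it. Its partners in transducin lay on chromosome 3 (Gnat2, 108092789 to 108101432) and chromosome 11 (Gngt2, 95837216 to 95845734). Opn1sw was on chromosome 6 (29376671 to 29388468), Pde6h on chromosome 6 (136923832 to 136968865), Pde6c on chromosome 19 (38132781 to 38183947), Cnga3 on chromosome 1 (37214434 to 37263384) and Cngb3 on chromosome 4 (19280850 to 19510623). The X chromosome carried Opn1mw (74127464 to 74150760) and Arr3 (100605497 to 100618493). Exons of 3 members were shared with a gene on the opposite strand, namely Opn1sw with Calu (397 bases), Gngt2 with Abi3 (234 bases) and Pde6h with Arhgdib (136 bases). Strand use in counting is not stated, so the reads of these 3 members are less certain than those of the others.

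Promoter sequence was at hand for 6 of the 10 genes (RefSeq, GRCm38.p6), in 7 windows of 250 bases before the start. Cnga3 had a pair of windows, and none was found for Gnb3, Gngt2, Pde6c or Cngb3. Windows are shown for Arr3, Opn1sw and Pde6h, which were lower after the crush and higher with TPEN. CRX and OTX2, homeodomain factors of photoreceptors, are known to bind sites of the type TAATCC or TAAGCC. The core TAATC, which TAATCC contains, was searched with TAAGCC on both strands, and capitals mark each match. The windows of Opn1sw and Pde6h lie inside the deposited spans of these genes, which begin further upstream. The motifs were chosen after the values of the genes had been seen.
Arr3, chrX:100605247-100605496, plus strand: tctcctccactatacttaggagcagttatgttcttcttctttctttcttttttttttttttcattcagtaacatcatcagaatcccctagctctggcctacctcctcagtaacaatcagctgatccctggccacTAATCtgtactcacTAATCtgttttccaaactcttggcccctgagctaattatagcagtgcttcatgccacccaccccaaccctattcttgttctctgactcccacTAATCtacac
Opn1sw, chr6:29380514-29380763, minus strand: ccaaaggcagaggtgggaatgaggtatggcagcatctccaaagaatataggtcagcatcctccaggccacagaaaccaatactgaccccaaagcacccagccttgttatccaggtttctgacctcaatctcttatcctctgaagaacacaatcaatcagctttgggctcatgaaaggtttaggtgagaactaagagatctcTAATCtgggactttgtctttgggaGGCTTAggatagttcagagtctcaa
Pde6h, chr6:136954273-136954522, plus strand: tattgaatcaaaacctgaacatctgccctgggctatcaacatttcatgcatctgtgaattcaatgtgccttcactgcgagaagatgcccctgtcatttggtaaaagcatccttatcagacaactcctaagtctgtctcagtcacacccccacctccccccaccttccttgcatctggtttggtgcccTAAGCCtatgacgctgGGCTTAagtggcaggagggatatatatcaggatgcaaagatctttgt
The Arr3 window held TAATC 3 times, starting 116, 102 and 10 bases before the start. The Opn1sw window held TAATC starting 49 bases and the reverse complement of TAAGCC starting 25 bases before it. The Pde6h window held TAAGCC forward at 63 bases and reversed at 47 bases. TAATC also occurred in the Gnat2 window, there as the reverse complement of TAATCC, and TAAGCC in a Cnga3 window. The Opn1mw window held neither. Of all 32851 promoter windows of this length, 19.8% held TAATC, 6.25% TAATCC and 8.20% TAAGCC. A match describes these letters and is not shown to be a bound site.

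After the crush, the cone genes other than Gnb3 and Gngt2 were at or slightly below their Ctrl levels, whereas Gnb3 rose 3.19-fold. Arr3, Pde6c, Pde6h and Opn1sw fell in ONC/Ctrl, by 11.8% to 17.8% of the Ctrl mean. Gnb3 and Gngt2 rose, and Opn1mw, Gnat2, Cnga3 and Cngb3 did not pass the test (limma, adjusted p under 0.05 over 13566 genes). These 2 rises stand beside 11.7% of all genes called higher, and the 4 falls beside 6.97% called lower. Gnb3 was the only member to change at least 1.5-fold as well, as did 4.58% of genes in the upward direction. The median log2 fold change was -0.15 for the 10 genes and 0.017 for all genes tested.

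With TPEN, 8 of the 10 genes were higher than after the crush with PBS, and Gnb3 was lower. Pde6c, Pde6h, Opn1sw, Cngb3, Opn1mw, Gnat2, Arr3 and Cnga3 rose in TPEN/ONC, each at least 1.5-fold, from 1.51-fold for Cnga3 to 1.94-fold for Pde6c. Among all genes, 3.24% were called higher in TPEN/ONC and 0.818% were called higher with a change of at least 1.5-fold. Gnb3 fell to 0.861 of its ONC level, in a direction in which 4.14% of genes were called. Gngt2 had a log2 fold change of 0.23 and did not pass the test (limma adjusted p = 0.214). The median log2 fold change of the 10 genes was 0.76, against -0.011 for all genes tested. All 3 TPEN libraries lay above all 3 ONC libraries for the 9 genes other than Gnb3, which 12.5% of all genes did, and below them for Gnb3, which 15.6% did.

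Against intact retinas, every member was higher in TPEN. All 10 genes rose in TPEN/Ctrl, where 8.36% of all genes were called higher, and 8 of them rose at least 1.5-fold, where 3.45% did. The log2 fold changes ran from 0.45 (Arr3) to 0.68 (Pde6c) in the 9 genes other than Gnb3, and reached 1.46 in Gnb3. In each gene, every TPEN library exceeded every Ctrl library, as in 18.1% of all genes. The comparisons ONC/Ctrl and TPEN/ONC share the ONC libraries, and those with Ctrl share the Ctrl libraries, so the values of a gene in the 3 comparisons are not independent.

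**Figure D1:**
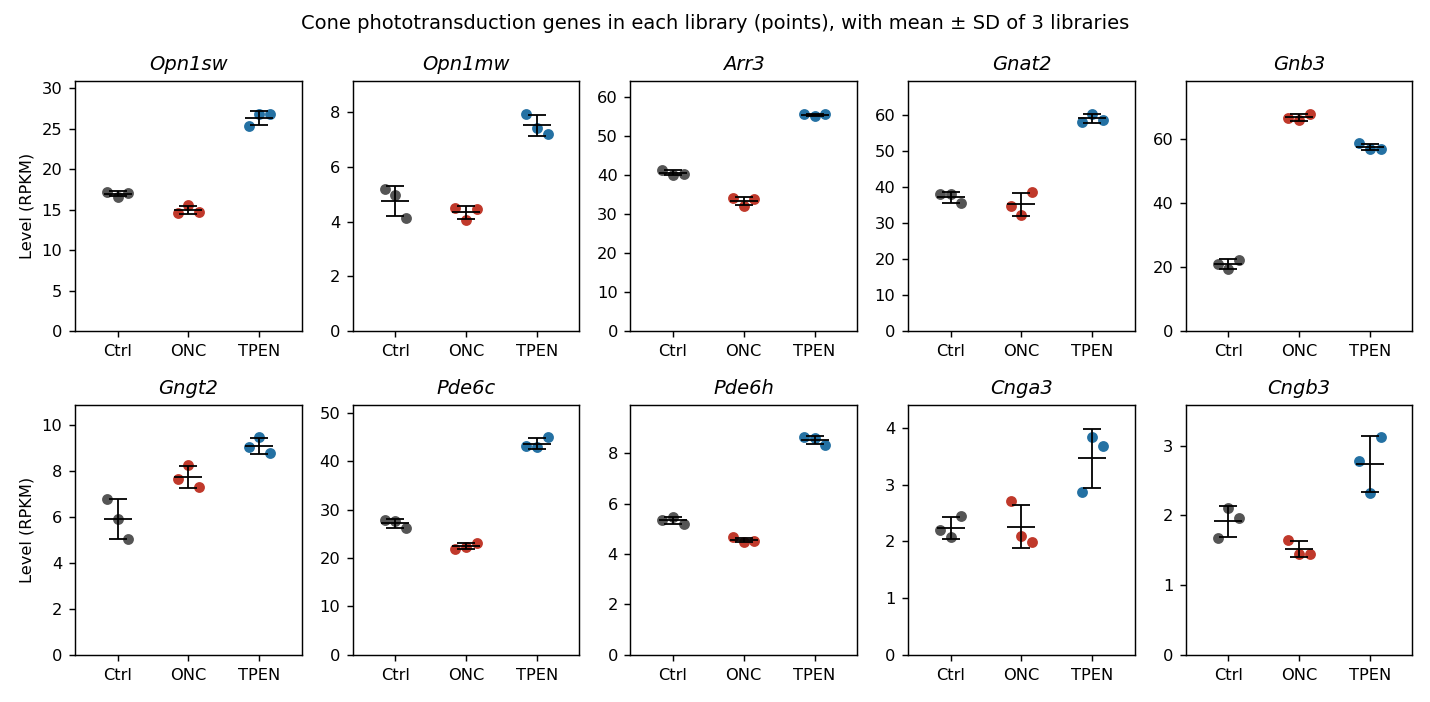
Level of each cone phototransduction gene (RPKM, vertical axes from 0, each panel on its own scale) in the 3 Ctrl, 3 ONC and 3 TPEN libraries, with points for libraries and bars for the mean ± SD of a group. In 9 panels the TPEN points are the highest, and in the Gnb3 panel the ONC points (66.0 to 68.0 RPKM) are, with the TPEN points between ONC and Ctrl.

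The opsins start the cascade. Opn1sw, the short-wavelength opsin, was at 17.2, 16.6 and 17.0 RPKM in Ctrl, 14.6, 15.5 and 14.7 RPKM in ONC and 25.3, 26.8 and 26.8 RPKM in TPEN. The 3 groups did not overlap, with ONC the lowest and TPEN the highest. Its log2 fold change was -0.18 in ONC/Ctrl (standard error, SE, 0.041; limma adjusted p = 0.0131), a call that was lost without ONC replicate 1 (adjusted p = 0.0532), and 0.81 in TPEN/ONC (SE 0.041, limma adjusted p = 4.8e-06). Calu, the gene on the other strand at Opn1sw, stayed at group means of 38.0 to 40.8 RPKM and was not called in any comparison. Opn1mw, the middle-wavelength opsin, was at 5.20, 4.96 and 4.15 RPKM in Ctrl, 4.51, 4.07 and 4.46 RPKM in ONC and 7.94, 7.41 and 7.19 RPKM in TPEN. Ctrl and ONC overlapped, and TPEN stood above both. The log2 fold change of Opn1mw was -0.13 in ONC/Ctrl (95% interval -0.33 to 0.076, limma adjusted p = 0.384) and 0.78 in TPEN/ONC (SE 0.090, limma adjusted p = 0.00104). In TPEN/Ctrl, it was 0.65 for Opn1mw and 0.63 for Opn1sw.

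The 3 transducin subunits had 3 different patterns. Gnat2, the α subunit that binds GTP and activates the phosphodiesterase, was at 38.1, 38.2 and 35.5 RPKM in Ctrl, 34.8, 32.4 and 38.7 RPKM in ONC and 58.3, 60.5 and 58.7 RPKM in TPEN. The ONC libraries spread across the Ctrl range, and the TPEN libraries were all higher. For Gnat2, the log2 fold change was -0.081 in ONC/Ctrl (95% interval -0.21 to 0.052, limma adjusted p = 0.394) and 0.75 in TPEN/ONC (SE 0.059, limma adjusted p = 8.9e-05).

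Gnb3, the β subunit, was at 21.1, 19.4 and 22.4 RPKM in Ctrl, 66.7, 66.0 and 68.0 RPKM in ONC and 58.8, 57.0 and 56.9 RPKM in TPEN. The groups were far apart after the crush, and the TPEN libraries lay just under the ONC libraries. The log2 fold change of Gnb3 was 1.67 in ONC/Ctrl (SE 0.048, limma adjusted p = 1.5e-08) and 1.46 in TPEN/Ctrl (limma adjusted p = 7.2e-08). In TPEN/ONC it was -0.22 (SE 0.048, limma adjusted p = 0.0251), or a fall of 13.9% of the ONC mean. That fall kept its sign but lost the threshold when any of the 3 ONC or 3 TPEN libraries was left out (adjusted p from 0.0540 to 0.0879) and with quantile normalization (0.0517). Measured in each TPEN library against the means of the other groups, Gnb3 kept 79.7% ± 2.30 (SD, n = 3) of its rise.

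Gngt2, the γ subunit that anchors transducin to the membrane, was at 6.77, 5.90 and 5.02 RPKM in Ctrl, 7.65, 8.26 and 7.31 RPKM in ONC and 9.01, 9.45 and 8.76 RPKM in TPEN. Its libraries lay in steps, with no overlap between neighboring groups. The log2 fold change of Gngt2 was 0.39 in ONC/Ctrl (SE 0.099, limma adjusted p = 0.0203) and 0.62 in TPEN/Ctrl (limma adjusted p = 0.00259). The first of these calls was lost when Ctrl replicate 2 or either of ONC replicates 1 and 2 was left out (adjusted p from 0.0517 to 0.0742). In TPEN/ONC, the interval ran from 0.0065 to 0.45. Abi3, whose exons share bases with Gngt2 on the other strand, had group means of 0.967 (Ctrl), 1.78 (ONC) and 1.55 RPKM (TPEN). Abi3 rose in ONC/Ctrl (log2 fold change 0.81, limma adjusted p = 0.00102), and its part in the reads of Gngt2 was not tested.

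The phosphodiesterase subunits moved together. Pde6c, the catalytic subunit, was at 27.8, 27.6 and 26.1 RPKM in Ctrl, 21.8, 22.3 and 23.1 RPKM in ONC and 43.1, 42.9 and 44.9 RPKM in TPEN. Pde6h, the inhibitory γ subunit, was at 5.34, 5.45 and 5.20 RPKM in Ctrl, 4.66, 4.48 and 4.52 RPKM in ONC and 8.62, 8.59 and 8.33 RPKM in TPEN. Both genes were lowest in ONC and highest in TPEN, without overlap between groups. Pde6c had log2 fold changes of -0.28 in ONC/Ctrl (SE 0.038, limma adjusted p = 7.3e-04) and 0.96 in TPEN/ONC (SE 0.038, limma adjusted p = 8.8e-07). Those of Pde6h were -0.22 (SE 0.051, limma adjusted p = 0.0136) and 0.89 (SE 0.051, limma adjusted p = 1.1e-05). Arhgdib, which shares exon bases with Pde6h on the other strand, moved the opposite way, with log2 fold changes of 2.10 in ONC/Ctrl (limma adjusted p = 0.00130) and -1.51 in TPEN/ONC (limma adjusted p = 0.0199). The exon length deposited for Pde6h, 7846 bases, exceeds its longest annotated transcript (GENCODE M21, 5940 bases) and its shortest (211 bases). This lowers its RPKM, and alters its fold changes only through the 0.1 RPKM added before the log. The same excess was 1.43 times for Gnb3, 1.39 times for Arr3 and 1.02 times for Pde6c.

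The channel genes had the lowest levels. Cnga3, the subunit that forms the cGMP-gated pore, was at 2.20, 2.08 and 2.45 RPKM in Ctrl, 2.70, 2.09 and 1.99 RPKM in ONC and 2.87, 3.83 and 3.69 RPKM in TPEN. ONC spread beyond the Ctrl range on both sides, and TPEN was above both groups. The log2 fold change of Cnga3 was 0.0024 in ONC/Ctrl (95% interval -0.32 to 0.32, limma adjusted p = 0.993), 0.59 in TPEN/ONC (SE 0.14, limma adjusted p = 0.0367) and 0.60 in TPEN/Ctrl (limma adjusted p = 0.0235). The TPEN/ONC call was lost when only the 6 libraries compared were fitted (adjusted p = 0.0660) and without any one of 6 libraries, namely Ctrl replicate 1 or 2, ONC replicate 2 or 3, or TPEN replicate 2 or 3 (0.0505 to 0.122). The TPEN/Ctrl call was lost without Ctrl replicate 1 or 2 or TPEN replicate 2 or 3 (0.0672 to 0.0808). Cngb3, the modulatory subunit, was at 1.68, 2.11 and 1.97 RPKM in Ctrl, 1.64, 1.45 and 1.45 RPKM in ONC and 2.78, 2.32 and 3.12 RPKM in TPEN. ONC lay just below Ctrl, and TPEN was the highest. Its log2 fold change was -0.32 in ONC/Ctrl (95% interval -0.61 to -0.026, limma adjusted p = 0.127), 0.81 in TPEN/ONC (SE 0.13, limma adjusted p = 0.00587) and 0.49 in TPEN/Ctrl (limma adjusted p = 0.0354). The last of these was lost with quantile normalization (adjusted p = 0.0564), in the fit of 6 libraries (0.0679) and without Ctrl replicate 1 or 3, ONC replicate 2 or TPEN replicate 1 or 3 (0.0511 to 0.115).

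Arr3, cone arrestin, which binds activated cone opsin, was at 41.3, 40.1 and 40.3 RPKM in Ctrl, 34.0, 32.0 and 34.0 RPKM in ONC and 55.5, 55.1 and 55.7 RPKM in TPEN. Its groups did not overlap and its libraries varied little within a group. The log2 fold change of Arr3 was -0.28 in ONC/Ctrl (SE 0.032, limma adjusted p = 2.2e-04), 0.73 in TPEN/ONC (SE 0.032, limma adjusted p = 1.6e-06) and 0.45 in TPEN/Ctrl (limma adjusted p = 1.8e-05). Over the members, ONC lay below Ctrl without overlap for Arr3, Opn1sw, Pde6c, Pde6h and Cngb3, as for 15.8% of all genes, and above it for Gnb3 and Gngt2, as for 20.7%.

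**Figure D2:**
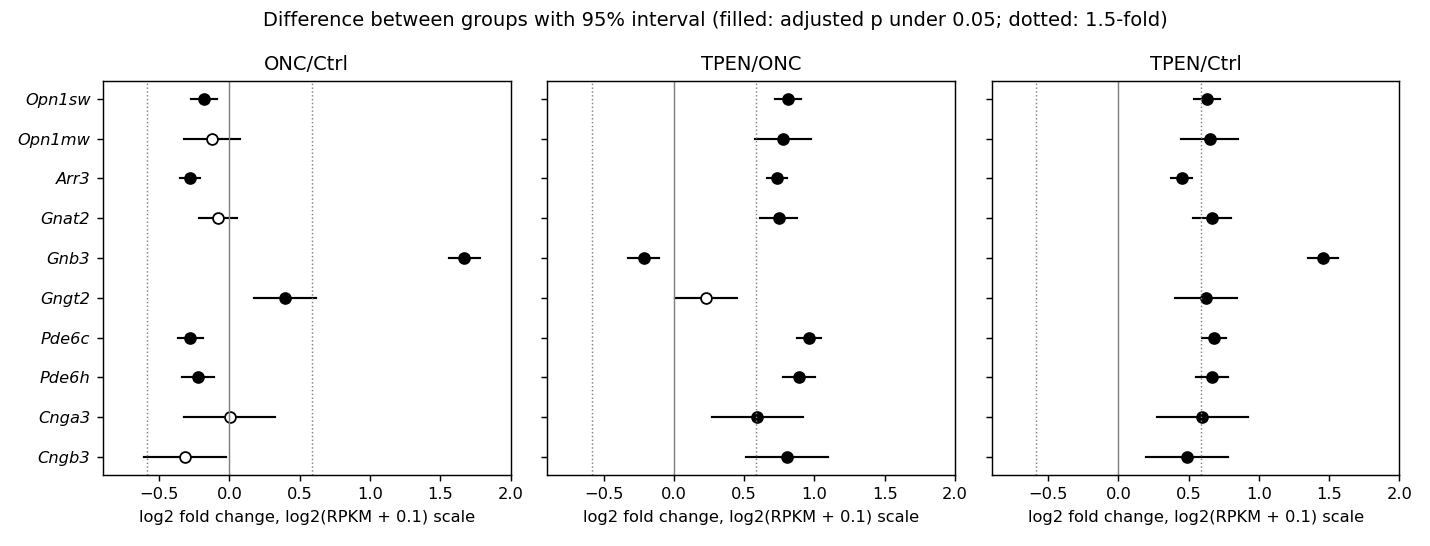
Log2 fold change of each member in ONC/Ctrl, TPEN/ONC and TPEN/Ctrl on the log2(RPKM + 0.1) scale (horizontal axes), with bars for the 95% interval, filled points for an adjusted p under 0.05 and dotted lines at a fold change of 1.5. Gnb3 stands apart at 1.67 in ONC/Ctrl and is the only member left of 0 in TPEN/ONC.

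By level per exon length, the order of the members also changed. In Ctrl, Arr3 and Gnat2 were the highest (means 40.6 and 37.3 RPKM), followed by Pde6c (27.2 RPKM), Gnb3 (21.0 RPKM) and Opn1sw (16.9 RPKM), with no overlap between neighbors in this order. These orders hold for the deposited exon lengths. The lead of Pde6c over Gnb3 in Ctrl is smaller than the gap between their 2 excess lengths given above, so their order is uncertain, as is that of the 3 highest genes in TPEN. Gngt2 and Pde6h overlapped (5.90 and 5.33 RPKM), Opn1mw (4.77 RPKM) overlapped Gngt2 as well, and Cnga3 and Cngb3 overlapped at the bottom (2.24 and 1.92 RPKM). In ONC, Gnb3 was the highest member at 66.9 RPKM, and Gnat2 and Arr3 overlapped behind it (35.3 and 33.3 RPKM). In TPEN, Gnat2 and Gnb3 overlapped at the top (59.1 and 57.6 RPKM), and Arr3 was next at 55.4 RPKM. Gnb3 made up 11.9% to 14.0% of the summed RPKM of the 10 genes in Ctrl, 34.3% to 35.0% in ONC and 20.8% to 21.6% in TPEN. The 9 other genes together came to 138 to 146 RPKM (Ctrl), 123 to 130 RPKM (ONC) and 213 to 217 RPKM (TPEN). All 10 genes took 0.0457% to 0.0473% of the reads in Ctrl, 0.0524% to 0.0551% in ONC and 0.0774% to 0.0780% in TPEN.

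**Figure D3:**
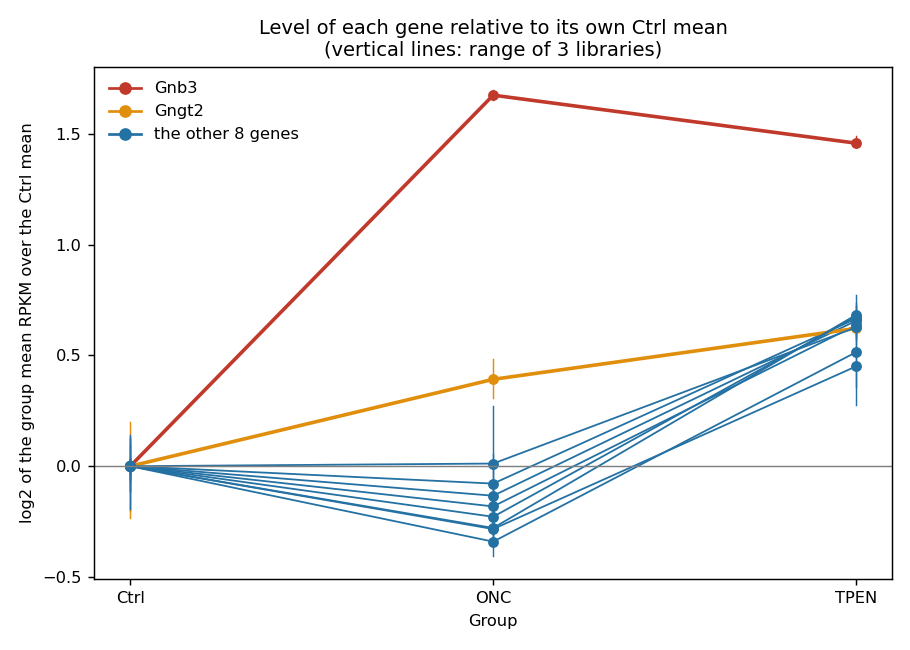
Level of each member relative to its own Ctrl mean, as log2 of the ratio of group means (vertical axis), for Ctrl, ONC and TPEN, with vertical lines for the range of the 3 libraries. The 8 genes drawn in blue stay near or under 0 in ONC and rise in TPEN, Gngt2 lies higher at each step, and Gnb3 rises in ONC and stays high in TPEN.

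Whether partners of a complex changed in proportion was tested on log2 ratios within each library, taken after adding 0.1 RPKM to each level. Apart from that addition, such ratios do not depend on library scaling. Across 13 ratios, an exact permutation test of the 3 groups, with 280 ways to assign the libraries, cannot go below p = 0.00357, and the two-sided exact test of a pair of groups cannot go below 0.1. Gnb3 relative to Gnat2 was at -0.97 to -0.66 in Ctrl, 0.81 to 1.02 in ONC and -0.084 to 0.013 in TPEN, as log2 ratios of level. The 3 groups did not overlap, with Ctrl the lowest and ONC the highest. The size of a ratio depends on the exon lengths used, whereas its differences between groups do not, apart from the added 0.1 RPKM. The ratio of Gnb3 to Gnat2 differed over the 3 groups (exact permutation p = 0.00357, Benjamini-Hochberg adjusted 0.0116). It rose by 1.75 in ONC and fell by 0.96 from ONC to TPEN (two-sided exact permutation p = 0.1 for each pair). Gngt2 relative to Gnat2 also differed over the 3 groups (exact permutation p = 0.0286, adjusted 0.0413). That ratio rose by 0.48 in ONC and fell by 0.52 from ONC to TPEN (two-sided exact permutation p = 0.1 for each pair), and the groups Ctrl and TPEN overlapped. Its p over the 3 groups rose to between 0.0571 and 0.0679 without Ctrl replicate 2, ONC replicate 2 or any TPEN library.

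For the other partners, no change of ratio passed the test. The log2 ratio of Pde6h to Pde6c had means of -2.33 in Ctrl, -2.27 in ONC and -2.34 in TPEN (exact permutation p = 0.396). With a pseudocount of 1 RPKM in place of 0.1, that p was 0.00357, with a fall of 0.15 from ONC to TPEN. This larger addition weighs more on Pde6h, the lower of the 2 genes. Cngb3 relative to Cnga3 had means of -0.22, -0.54 and -0.33 (exact permutation p = 0.321), and Opn1mw relative to Opn1sw had means of -1.81, -1.76 and -1.80 (exact permutation p = 0.889). Against the mean log2 level of the other 9 genes, Gnb3 was 1.05 to 1.32 higher in Ctrl, 2.92 to 3.01 higher in ONC and 1.99 to 2.08 higher in TPEN.

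The cone genes were also set against their rod counterparts in the same library. Relative to rods, cone transcripts were scarce, from 0.324% for Gnat2 against Gnat1 to 6.51% for Arr3 against Sag, the rod arrestin, in Ctrl. Arr3 was at 6.36% to 6.62% of Sag in Ctrl, 4.92% to 5.17% in ONC and 9.30% to 9.70% in TPEN. Pde6c was at 1.61% to 1.75% of the rod subunit Pde6a in Ctrl, 1.55% to 1.64% in ONC and 2.83% to 2.96% in TPEN. Gnb3 was at 2.16% ± 0.209 of the rod β subunit Gnb1 in Ctrl, 8.06% ± 0.0598 in ONC and 6.30% ± 0.255 in TPEN (SD, n = 3). For Arr3 and Pde6c the TPEN libraries were thus the highest, and for Gnb3 the ONC libraries.

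All 8 ratios of cone to rod genes differed between the groups (exact permutation p from 0.00357 to 0.0321, adjusted p up to 0.0418), so that with Gnb3 and Gngt2 against Gnat2, 10 of the 13 ratios passed at an adjusted p under 0.05. From ONC to TPEN, 6 of the 8 rose without overlap between the groups, by 0.63 (Gnat2 to Gnat1) to 0.90 (Arr3 to Sag) on the log2 scale. These included Pde6h to Pde6g (0.89), Cngb3 to Cngb1 (0.88), Pde6c to Pde6a (0.85) and Cnga3 to Cnga1 (0.64). Gnb3 to Gnb1 fell by 0.36, and Gngt2 to Gngt1 overlapped between ONC and TPEN, with a difference of 0.16. The ratio of Gngt2 to Gngt1 lost p under 0.05 in 6 of the 9 tests that left out a library (0.0536 to 0.0643). So did that of Cnga3 to Cnga1, in 6 of 9 (0.05 to 0.0893).

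**Figure D4:**
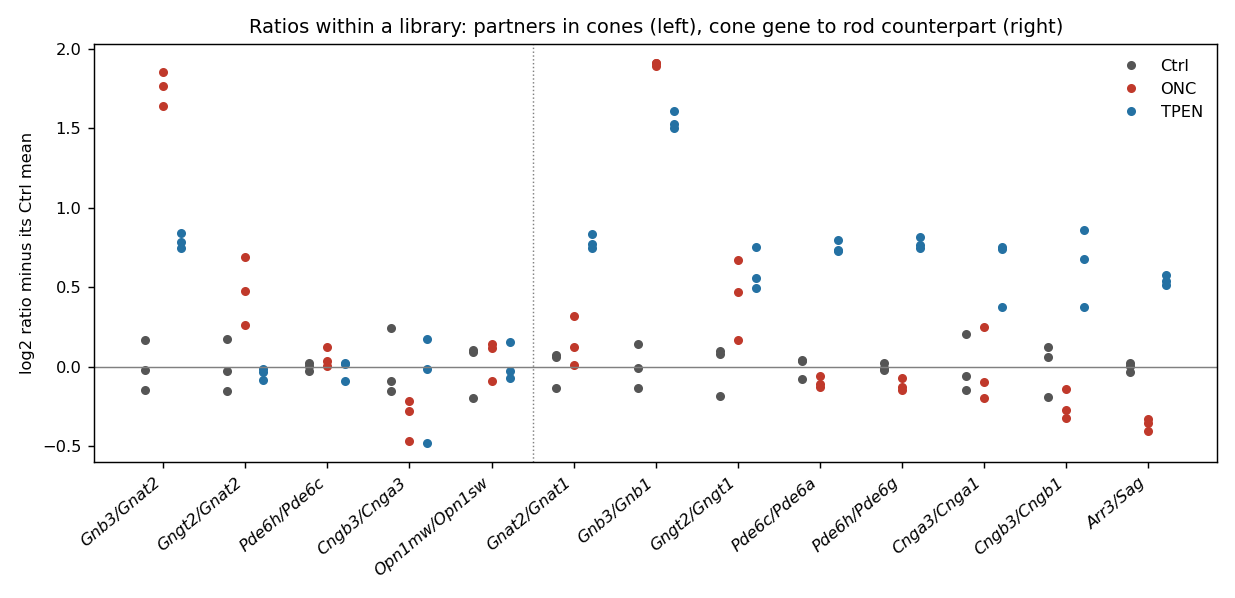
Log2 ratio of 2 genes within a library minus its Ctrl mean (vertical axis), with points for the 9 libraries, for 5 pairs of cone partners on the left and 8 pairs of a cone gene and its rod counterpart on the right. The ratios of Gnb3 to Gnat2 and to Gnb1 are highest in ONC, and 6 of the 8 ratios to rod genes are highest in TPEN without overlap with ONC.

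The rod genes themselves moved little. Of 11 rod cascade genes, 7 fell and 1 (Sag, 0.079 on the log2 scale) rose in ONC/Ctrl, with a median log2 fold change of -0.15. In TPEN/ONC, 3 rose, 1 fell and 7 did not pass the test, with values between -0.17 and 0.14 and a median of -0.0014. In TPEN/Ctrl, 0 rose and 7 fell, and no rod gene reached 1.5-fold in any comparison. Among all genes, 11.7% were called higher and 6.97% lower in ONC/Ctrl, 3.24% higher and 4.14% lower in TPEN/ONC, and 5.01% lower in TPEN/Ctrl. The summed level of the rod genes was 21485 to 22042 RPKM (Ctrl), 18976 to 19032 RPKM (ONC) and 20171 to 20270 RPKM (TPEN).

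Of 18 further phototransduction and visual cycle genes, most of them used by both rods and cones, 5 rose and 1 fell in TPEN/ONC, none of them 1.5-fold, with a median log2 fold change of 0.0059. The 5 were Gucy2f, a guanylate cyclase (0.30), Rcvrn, recoverin (0.21), Pdc, phosducin (0.18), Rgs9, which speeds the shutoff of transducin (0.14), and Abca4, a retinoid transporter (0.13). Slc24a2, the exchanger of cones that extrudes calcium, had group means of 0.431 (Ctrl), 0.509 (ONC) and 0.788 RPKM (TPEN). It rose in TPEN/Ctrl (log2 fold change 0.74, limma adjusted p = 0.0142) and had a log2 fold change of 0.54 in TPEN/ONC that did not pass the test (limma adjusted p = 0.0767). In ONC/Ctrl, 1 of the 18 rose and 8 fell, and in TPEN/Ctrl 2 rose and 6 fell. Over all genes, limma called 11.7% higher and 6.97% lower in ONC/Ctrl. The same shares were 3.24% and 4.14% in TPEN/ONC, and 8.36% and 5.01% in TPEN/Ctrl.

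Among 5 further genes with higher expression in cones than in rods, 4 passed the filter on low genes. Kcne2, a potassium channel subunit, rose in TPEN/ONC (log2 fold change 0.72, limma adjusted p = 0.00103), as did Ccdc136 (0.57, limma adjusted p = 4.0e-05), which shares exon bases with 2 predicted genes. Thrb, the thyroid hormone receptor that directs opsin choice, had group means of 12.3 RPKM (ONC) to 13.2 RPKM (Ctrl), with limma adjusted p of at least 0.163. Rxrg, a retinoid receptor, went from 1.42 ± 0.287 RPKM (Ctrl) to 0.575 ± 0.152 RPKM (ONC) and 0.867 ± 0.0578 RPKM (TPEN; SD, n = 3). It fell in ONC/Ctrl (log2 fold change -1.18, limma adjusted p = 0.00221), and its log2 fold change of 0.54 in TPEN/ONC did not pass the test (limma adjusted p = 0.135). Sall3, under the filter, had group means of 0.178, 0.230 and 0.402 RPKM. Among 8 photoreceptor transcription factors, 2 rose and 5 fell in ONC/Ctrl, and 2 rose (Prdm1, 0.51, and Rorb, 0.27) and 1 fell (Neurod1, -0.21) in TPEN/ONC. Limma called 11.7% of all genes higher and 6.97% lower in ONC/Ctrl, and 3.24% higher and 4.14% lower in TPEN/ONC. Neurod1 shares exon bases with Cerkl and a predicted gene. Crx fell in ONC/Ctrl (-0.19) and was not called in TPEN/ONC (0.071, limma adjusted p = 0.0935).

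Since Gnb3 is also a gene of ON bipolar cells, other genes linked to their cascade were described beside it. Of 9 such genes, among them the receptor Grm6, the G protein Gnao1 and the channel Trpm1, 0 rose and 2 fell in ONC/Ctrl (Gpr179, -0.38, and Grm6, -0.35), and the highest log2 fold change was -0.050, in a comparison in which limma called 11.7% of all genes higher. In TPEN/ONC, Trpm1 and Gpr179 rose, each with a log2 fold change of 0.41 (limma adjusted p = 0.0123 and 0.00622). Limma called 6.97% of all genes lower in ONC/Ctrl and 3.24% higher in TPEN/ONC. Grm6 shares exon bases with a predicted gene. No gene of this list was called in TPEN/Ctrl, where the values lay between -0.19 and 0.20. The summed level of the list was 39.2 to 43.3 RPKM (Ctrl), 36.7 to 38.1 RPKM (ONC) and 40.2 to 41.6 RPKM (TPEN). Lrit3, the gene with the log2 fold change of -0.050, weighed most in this sum. Its group means were 18.8 (Ctrl), 18.1 (ONC) and 18.1 RPKM (TPEN). Which cells supplied the Lrit3 transcripts was not tested, so the sum is not a measure of ON bipolar cells alone. After Lrit3, Rgs7 had the highest log2 fold change of the list in ONC/Ctrl (-0.065). Of 12 further bipolar markers, 9 were tested and 0 were called in any comparison. Their log2 fold changes in ONC/Ctrl were -0.33 to 0.047. Of the bipolar genes tested, Gnb3 was the only one called higher in ONC/Ctrl. Levels differed widely, with means over the 9 libraries of 0.573 RPKM for Nyx and 48.5 RPKM for Gnb3. The part of ON bipolar cells in the level of Gnb3 was not tested.

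Markers of other cell types also differed between the groups. For comparison, limma called 11.7% of all genes higher and 6.97% lower in ONC/Ctrl. It called 3.24% higher and 4.14% lower in TPEN/ONC, and 8.36% higher in TPEN/Ctrl. Of 13 microglia and macrophage markers, 12 were in the table and 11 were tested. All 11 rose in ONC/Ctrl, 6 fell in TPEN/ONC and all 11 rose in TPEN/Ctrl. Their summed level was 4.65 to 5.63 RPKM (Ctrl), 60.9 to 64.0 RPKM (ONC) and 27.0 to 27.8 RPKM (TPEN), and none of the 12 was at 0 in a library. Among 9 Müller glia markers, 3 rose and 3 fell in ONC/Ctrl. Gfap rose the most (log2 fold change 2.95), followed by Vim (1.585) and Apoe (0.64). Those that fell were Glul (-0.57), which shares exon bases with other genes, Aqp4 (-0.32) and Rlbp1 (-0.18). In TPEN/ONC, 5 fell, among them Gfap (-0.62), and 2 rose (Aqp4, 0.30, and Sox9, 0.29). The summed level of these 9 genes was 556 to 576 RPKM (Ctrl), 640 to 651 RPKM (ONC) and 502 to 512 RPKM (TPEN). In ONC, Apoe weighed most in this sum, with group means of 172 (Ctrl), 268 (ONC) and 178 RPKM (TPEN). Of 13 RGC markers, 8 were tested. In ONC/Ctrl, 4 rose (Gap43, Stmn2, Nefm and Sncg) and 1 fell (Nefh), and in TPEN/ONC 1 rose and 4 fell. The 1 that rose in TPEN/ONC was Thy1 (0.40, limma adjusted p = 0.00587). Its group means were 4.74 (Ctrl), 5.35 (ONC) and 7.12 RPKM (TPEN). Rbpms, Pou4f1 and Slc17a6 were under the filter and were not tested, with at most 71 reads in a library. Rbpms had group means of 0.605 (Ctrl), 0.393 (ONC) and 0.319 RPKM (TPEN). In the same order, those of Pou4f1 were 0.571, 0.183 and 0.241 RPKM, and those of Slc17a6 were 0.268, 0.435 and 0.438 RPKM. Summed levels of the RGC markers, of which Nefl made up the largest part, were 371 to 381, 396 to 418 and 309 to 323 RPKM in Ctrl, ONC and TPEN. Of 9 amacrine markers, 4 were tested, 1 rose and 1 fell in ONC/Ctrl, and 2 rose in TPEN/ONC (Slc32a1, 0.56, and Slc6a9, 0.23). Slc32a1, the transporter that loads GABA and glycine into vesicles, also rose in TPEN/Ctrl (0.58, limma adjusted p = 0.0247), as no other of the 4 did. Both share exon bases with other genes. Of 7 pigment epithelium markers, 1 was tested and was not called in any comparison. Their summed levels were 48.2 to 49.9, 46.5 to 48.3 and 46.8 to 50.3 RPKM for amacrine cells, and 2.75 to 2.85, 2.81 to 3.20 and 3.23 to 3.48 RPKM for pigment epithelium, in Ctrl, ONC and TPEN. The part of these cell types in the levels of Gnb3 and the other members was not tested.

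The genes whose pattern over the 9 libraries was nearest to that of Gnb3 were found from the root mean square distance between log2(RPKM + 0.1) values centered on each gene. They were Klhl29 (distance 0.0759), Gm15983 (0.0765), Gap43, a growth cone gene of regrowing axons (0.0799), Ahr, the aryl hydrocarbon receptor (0.0959), and Myo10, an unconventional myosin (0.0969). Gap43 had group means of 7.79 (Ctrl), 24.0 (ONC) and 19.6 RPKM (TPEN), and log2 fold changes of 1.61 in ONC/Ctrl and -0.28 in TPEN/ONC. Ahr had a log2 fold change of 1.50 in ONC/Ctrl and of -0.072 in TPEN/ONC. These values describe genes chosen by their likeness to Gnb3. Gm15983 shares 143 exon bases with Eef2kmt on the other strand. The member nearest to Gnb3, Gngt2, ranked 637th among the genes tested.

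Arr3 had other members close by. Opn1sw ranked 8th among all genes by distance to Arr3, Pde6h 12th, Gnat2 24th, Pde6c 27th, Opn1mw 35th, Cngb3 50th and Cnga3 243rd, whereas Gngt2 ranked 4326th and Gnb3 13327th. The 5 nearest genes were Fam19a3 (distance 0.0516), Necab1 (0.0693), Krt222 (0.0712), Ccr9 (0.0803) and Ptprf (0.0834). These 5 genes were chosen by their likeness to Arr3 in these libraries, so their log2 fold changes of 0.65 to 0.74 in TPEN/ONC and -0.33 to -0.20 in ONC/Ctrl are a description. Fam19a3 and Ccr9 share exon bases with predicted genes. Pde6c and Pde6h were each other's nearest gene, and so were Opn1mw and Gnat2. These ranks describe the libraries and were not tested.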

How the data were processed

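Cells were sorted from mouse retinas as CD90.2-positive cells negative for other surface markers, and the authors sequenced their RNA in 9 libraries from a stranded mRNA kit with molecular identifiers. Per the submitters' notes, reads were trimmed with Trimmomatic 0.36. They were mapped to GRCm38/mm10 with STAR. The counting program, the annotation, the use of strand and the collapsing of identifiers are not given in the sources used here. The deposited RPKM values are the authors' reads per gene, divided by its exon length and the library total. The log2 fold changes deposited by the authors, with their p-values and FDR values, hold their own comparisons and were not used.

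Multiplied by exon length, 100% of the RPKM values in every library were whole multiples of 1 step within 0.001, which gave reads and library totals. A floor of 3 reads is 0.130 to 0.150 RPM and covers counting error only. Genes with a mean under 0.5 RPKM were left out, and the other 13566 were fitted as log2(RPKM + 0.1) over the 9 libraries with limma 3.58.1 (R 4.3.3, variance trend), with Benjamini-Hochberg adjustment over all genes. A gene was called at an adjusted p under 0.05. A second rule also asked for a fold change of at least 1.5. The pseudocount of 0.1 understates the changes of low genes. The fit was tested on simulated reads. Of genes changed 1.5-fold there, it called 64 of 99 in TPEN/ONC and 58 of 99 in TPEN/Ctrl. Of those changed 2-fold, it called 87 of 100 and 94 of 100, and of 13355 unchanged genes 4 and 6. A gene that did not pass the test is therefore not shown to be unchanged. Ratios were tested by exact permutation of an F statistic, with Python 3.11.15, numpy 2.4.6 and pandas 2.3.3, and figures were drawn with matplotlib 3.10.9.

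Groups came from the labels. The members and gene lists were chosen with earlier results of these data known. Genes named are the members, list genes where a list is described, genes overlapping a member and the 5 genes nearest in pattern to Gnb3 and to Arr3. Alternatives were quantile and median-of-ratios scaling, no filter or a minimum mean of 1 RPKM, a pseudocount of 1 or, for ratios, none, a fit of the 6 libraries compared, a block for the replicate number, each library left out in turn, a test against a fold change of 1.5 and voom on the whole reads.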

Additional observations from a re-analysis of the deposited data

How the results depend on the processing

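Calls of members were 2 up and 4 down in ONC/Ctrl, 8 up and 1 down in TPEN/ONC and 10 up and 0 down in TPEN/Ctrl. These counts were the same with median-of-ratios scaling, without the filter or with a minimum mean of 1 RPKM, with a pseudocount of 1 and with voom on the whole reads, and no fold change of a member changed sign past the threshold in any alternative. A test against a fold change of 1.5 left 1 up and 0 down in ONC/Ctrl, 3 up and 0 down in TPEN/ONC and 1 up in TPEN/Ctrl, since it asks for more than the threshold. Quantile normalization left 0 down in TPEN/ONC and 9 up in TPEN/Ctrl. When each library was left out in turn, the counts were 1 to 2 up and 3 to 4 down in ONC/Ctrl, 7 to 8 up and 0 to 1 down in TPEN/ONC and 8 to 10 up in TPEN/Ctrl, and 7 to 9 ratios passed against 10. The calls that depended on 1 library were those of Gnb3 and Cnga3 in TPEN/ONC, Gngt2 and Opn1sw in ONC/Ctrl, and Cnga3 and Cngb3 in TPEN/Ctrl.

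Libraries with the same number did not deviate together, with correlations of their deviations of -0.062 to 0.027, so the number was not taken as a pairing. With the replicate number as a block, 2 members were called up and 4 down in ONC/Ctrl, 7 up and 1 down in TPEN/ONC and 8 up in TPEN/Ctrl. Cnga3 lost the threshold in TPEN/ONC (adjusted p = 0.0862) and in TPEN/Ctrl (0.0574), and Cngb3 in TPEN/Ctrl (0.0708). The cause was not tested. Scaling moved the median log2 fold change of all genes to between -0.033 and 0.0048. With 3 libraries a group, a change of 1 ratio between a pair of groups cannot pass a two-sided exact test.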
